A study of Mus musculus with 9 samples.

Results

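The proteasome genes examined here are the protein-coding mouse genes whose symbol is Psma, Psmb, Psmc, Psmd, Psme or Psmg followed by a number, leaving out the inducible catalytic subunits Psmb8, Psmb9 and Psmb10. There were 44 such genes among the 38293 genes of the count table. By function they fell into 16 core genes, 21 regulatory genes and 7 assembly genes. The rule used the names of genes and no measured value. It leaves out Psmf1, Sem1, Adrm1 and Pomp, which also act in the proteasome and are treated below as genes of the pathway. Psmc3ip, whose symbol starts like a subunit but ends in letters, is not a proteasome subunit and was not included.

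RNA-seq of poly-A-enriched RNA was carried out in E14, a single mouse embryonic stem cell line of the 129/Ola strain, in 3 culture states with 3 replicates each that the labels call biological. The mESC-2i were kept naive in serum-free N2B27 with 1 μM PD0325901, which inhibits MEK, 3 μM CHIR99021, which inhibits GSK3, and 10 ng/mL LIF. The mESC-ser, labelled as primed, were kept on gelatin in medium with 15% foetal bovine serum and 10 ng/mL LIF. EpiLC (epiblast-like cells) were made from mESC-2i on fibronectin in N2B27 with 20 ng/mL activin A, 12 ng/mL bFGF and 1% KSR, without the inhibitors. All groups thus share the same line and carry no engineered allele.

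The proteasome is the protease that degrades most ubiquitin-tagged proteins of the cell. Its core is a barrel of stacked rings, in which alpha subunits (Psma) form the gates and beta subunits (Psmb) hold the catalytic sites. A regulatory particle of ATPases (Psmc) and non-ATPases (Psmd) binds the end of the barrel, recognises and unfolds tagged proteins and removes the ubiquitin. The activators (Psme) cap the barrel in its place and open the gate without needing ubiquitin. Dedicated chaperones build the core (Psmg) and the base of the regulatory particle (Psmd5, Psmd9 and Psmd10), and are not part of the finished enzyme. Embryonic stem cells are known for high proteasome activity.

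The libraries held between 7187576 and 16829549 counts. The culture states were checked by marker genes. The summed level of 4 epiblast-like markers was 14.8 to 16.4 RPKM in mESC-2i, 126 to 146 in mESC-ser and 363 to 384 in EpiLC, and that of 7 pluripotency markers was 1276 to 1499, 1039 to 1093 and 502 to 530. Most of the latter sum in EpiLC was Pou5f1, at a mean of 448 RPKM against 388 in mESC-2i. Sox2, Nanog, Esrrb, Klf4, Zfp42 and Tfcp2l1 were all lower in EpiLC than in mESC-2i. In mESC-ser the means of Sox2 (247 against 227 RPKM) and Zfp42 (188 against 156 RPKM) were above those in mESC-2i, while the other pluripotency markers were lower. Markers of other cells were low throughout. The summed level did not exceed 11.8 RPKM for 5 fibroblast markers, 2.88 for 5 primitive endoderm markers and 12.4 for 4 trophoblast markers, and 1 of the trophoblast markers was at 0 in every EpiLC library. Genes for ribosomal proteins, which are mostly short, took 4.74 to 6.82% of the counts in mESC-2i, 2.67 to 3.29% in mESC-ser and 10.8 to 11.3% in EpiLC. Levels are given as RPKM, which relate a gene's counts to its exonic length and to the TMM-scaled size of the library. These are bulk samples, so a change in the number of cells of a kind and a change in RNA per cell cannot be told apart.

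Nearly all proteasome genes were detected in every library. Psmb11, the beta subunit of thymic epithelium, had at most 1 count in any library and could not be tested. The other 43 genes passed the filter on low counts in all comparisons, and the lowest count among them was 77, for Psma8 in EpiLC replicate 3. The 44 genes together took 0.706% ± 0.0791 of the counts in mESC-2i (SD, n = 3), 0.697% ± 0.0595 in mESC-ser and 1.01% ± 0.0215 in EpiLC. The core genes carried most of the difference. Their share was 0.260, 0.291 and 0.209% in the 3 mESC-2i libraries. The mESC-ser libraries gave 0.223, 0.230 and 0.173%, and the EpiLC libraries 0.481, 0.490 and 0.468%. The regulatory genes took 0.427% ± 0.0355, 0.463% ± 0.0270 and 0.489% ± 0.00933, and the assembly genes 0.0257% ± 0.00294, 0.0243% ± 0.00164 and 0.0418% ± 0.00141. Replicate 3 had the lowest core share in each group and also the lowest share of ribosomal protein genes.

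By exonic length, the median levels of core and regulatory genes were similar in the stem cells and apart in EpiLC. The median level of the core genes was 56.4 RPKM ± 9.85 in mESC-2i (SD, n = 3), 51.2 ± 5.73 in mESC-ser and 163 ± 8.04 in EpiLC. The median of the regulatory genes was 60.2 RPKM ± 2.48, 58.1 ± 3.33 and 85.5 ± 1.58. The ratio of the core median to the regulatory median therefore averaged below 1 in both stem cell states (0.935 ± 0.129 in mESC-2i and 0.880 ± 0.0647 in mESC-ser), against 1.90 ± 0.0589 in EpiLC. Every EpiLC library lay above every stem cell library in this ratio. With levels per length of the principal transcript in place of all exons, the ratio was 1.44 ± 0.0845, 1.03 ± 0.0733 and 1.99 ± 0.0921. The core median then lay above the regulatory median in mESC-2i too, and the distance between mESC-2i and EpiLC depends on the length used. EpiLC stood highest with both lengths. By exonic length the mESC-2i libraries (0.793 to 1.04) and the mESC-ser libraries (0.814 to 0.944) overlapped.

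**Figure D1:**
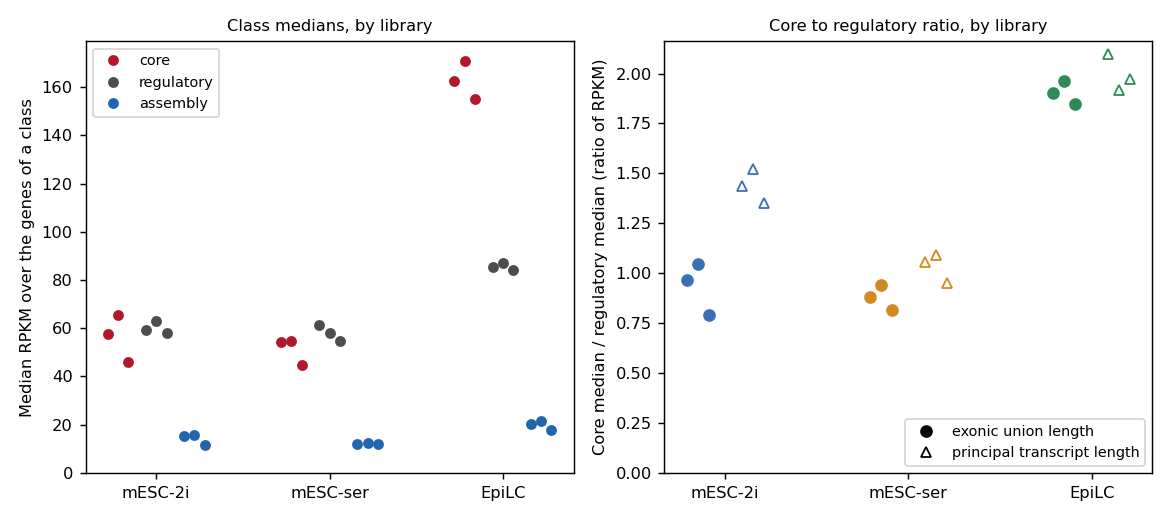
Left, the median RPKM over the genes of each class in each of the 9 libraries (points, 3 per group; red core, grey regulatory, blue assembly). Right, the ratio of the core median to the regulatory median in each library, with RPKM computed from the exonic union length (filled circles) or the principal transcript length (open triangles). Core medians in EpiLC lie near 163 RPKM against 56.4 in mESC-2i, and all EpiLC ratios lie above those of the other libraries.

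Subunits that stand in equal numbers in the particle did not have equal mRNA levels. Among Psma1 to Psma7 and Psmb1 to Psmb7, the lowest mean level in mESC-2i was that of Psma3 at 31.0 RPKM and the highest that of Psmb2 at 140 RPKM, a ratio of 4.51. In EpiLC the lowest was again Psma3, at 83.4 RPKM, and the highest was Psmb6 at 342 RPKM, a ratio of 4.10. These spreads depend on the length used, and with the principal transcript the ratio was 6.99 in mESC-2i and 7.03 in EpiLC, from Psma3 to Psmb6 in both. By exonic length the 6 ATPases ranged from 36.2 RPKM for Psmc2 to 136 RPKM for Psmc5 in mESC-2i, and from 48.8 to 263 RPKM for the same genes in EpiLC. With the principal transcript they ranged from Psmc6 (59.6 RPKM) to Psmc3 (152 RPKM) in mESC-2i. In EpiLC they then ranged from Psmc6 (81.7 RPKM) to Psmc4 (333 RPKM). By exonic length the 11 non-ATPases spread from 26.5 to 78.2 RPKM in mESC-2i and widened to between 18.4 RPKM for Psmd1 and 161 RPKM for Psmd7 in EpiLC. With the principal transcript Psmd4 (272 RPKM) was the highest of them in EpiLC and Psmd1 (43.0 RPKM) again the lowest. The 4 core chaperones had a median of 19.5 RPKM in mESC-2i and 64.5 RPKM in EpiLC, with Psmg1 highest at 45.4 and 111 RPKM, above Psma3 in both. Of the 43 detected genes, 35 had their highest mean level in EpiLC, 6 in mESC-ser and 2 in mESC-2i. This count has no share over all genes beside it. The levels carry no correction for the dependence of fold changes on transcript length described below.

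Promoter sequences were examined because NFE2L1 and NFE2L2, with small MAF proteins, are known to drive proteasome genes through antioxidant response elements. RefSeq windows of 300 bases (250 before the start site and 50 after, build GRCm38.p6) were found for 36 of the 44 genes, as 39 windows. The 8 genes with no window were Psma8, Psmb1, Psmb2, Psmb7, Psmc3, Psmd3, Psmd7 and Psmg2. Both strands were searched. The element core TGACNNNGC was in 6 of 39 windows (15.4%), against 12.4% of all 32851 windows, and the variant TGAGNNNGC in 13 (33.3%), against 17.65%. At least 1 of them was in 17 windows (43.6%, against 27.8%), belonging to 7 core, 6 regulatory and 3 assembly genes out of 12, 18 and 6 with a window. CCAAT was in 13 windows (33.3%, against 37.4%), CACGTG in 3 (7.69%, against 7.15%) and GCATGCGC in 3 (7.69%, against 2.71%). These are matches of letters and were not tested. The following 30-base stretches are given for the catalytic subunits Psmb5 and Psmb6, for the core gene Psmb3 and the chaperone gene Psmg4, which rose in EpiLC, and for Psmd1, which fell, with the match in capitals and on the strand of the gene:
Psmb5: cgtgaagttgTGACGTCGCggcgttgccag
Psmb6: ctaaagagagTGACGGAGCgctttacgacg
Psmb3: gcgttgacccTGAGAAAGCcagagccggtt
Psmg4: tctaggccccGCCCACTCAtgctcgcccca
Psmd1: tggcgggtgaTGAGTGGGCctctctttgca

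They lie at chr14:54618023-54618052 on the minus strand for Psmb5, and on the plus strand at chr11:70525338-70525367 for Psmb6, chr11:97703414-97703443 for Psmb3, chr13:34162927-34162956 for Psmg4 and chr1:86064385-86064414 for Psmd1. The first capital stands at -47, -9, -10, -27 and -224 from the start site in this order. In Psmg4 the match is on the opposite strand and is therefore printed as its reverse complement. Whether a match goes with a rise or a fall was not tested. The fall of Psmd1 in EpiLC against mESC-2i was not called after the corrections for length given below, while its fall against mESC-ser was.

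The comparison of EpiLC with mESC-2i asked how proteasome genes differ between naive cells and the epiblast-like cells made from them. Core genes and the chaperones of the core rose nearly throughout, while 9 of 21 regulatory genes rose. A gene was called, as higher or lower, where its log2 fold change exceeded 0.5 in size and edgeR's quasi-likelihood test gave p under 0.05 after Benjamini-Hochberg adjustment. Of the 43 tested genes, 28 rose, where 32.0% of all 15378 tested genes did, and 1 fell, where 37.8% did. By class, 14 of 15 core genes, 9 of the regulatory genes and 5 of 7 assembly genes rose. The median log2 fold change was 1.27 over the core genes, 0.44 over the regulatory genes, 1.27 over the assembly genes and -0.11 over all tested genes. Scaling by total counts in place of TMM moved the median of all genes by -0.34, and the share of higher genes among all calls from 45.9% to 33.7%. Under it 10993 of the 15378 tested genes were called, 33.7% of these higher. Among the proteasome genes 14 core genes were then called higher and 5 of 21 regulatory genes, in place of 9. The count of regulatory genes thus depends on the scaling and is not read as a rise beyond that of all genes.

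**Figure D2:**
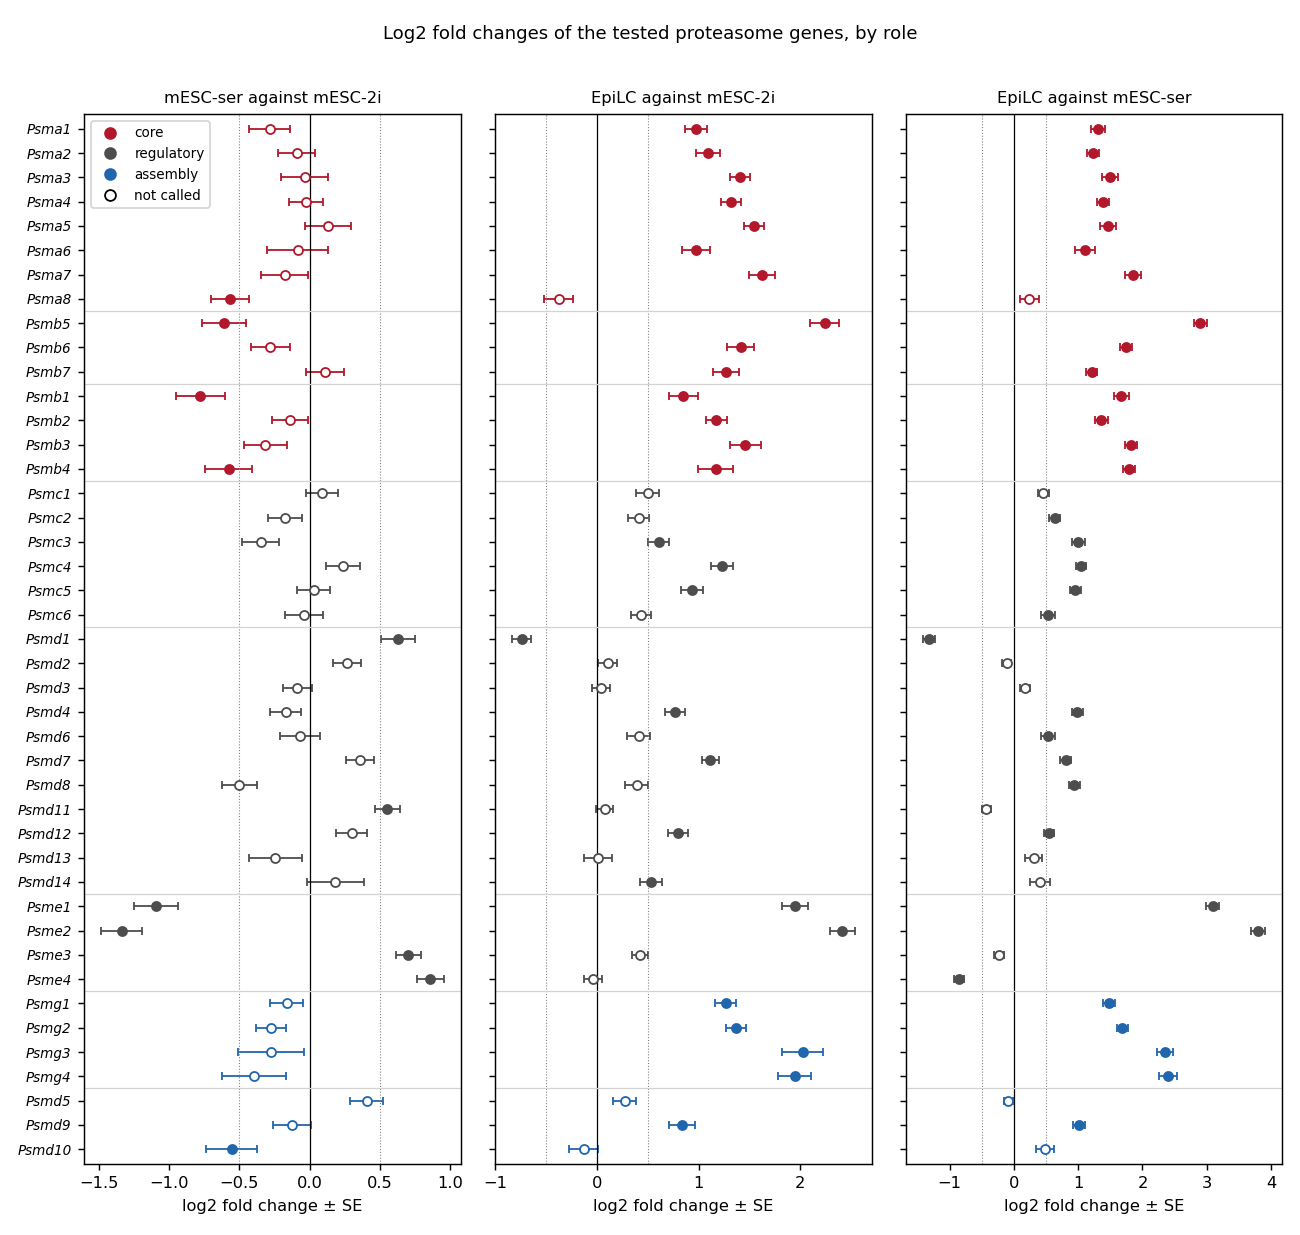
Log2 fold change (points) ± SE (bars) of the 43 tested genes in the 3 comparisons, ordered by role from the alpha ring at the top to the base chaperones at the bottom, with red for core, grey for regulatory and blue for assembly genes. Filled points were called and open points were not, and dotted lines mark a log2 fold change of -0.5 and 0.5. In both EpiLC panels the red points lie to the right, except Psma8 at -0.38 against mESC-2i, as do most blue points, while the grey points scatter from -0.74 to 2.41 against mESC-2i.

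In the alpha ring, which gates the barrel, Psma1 to Psma7 all rose in EpiLC against mESC-2i, with log2 fold changes from 0.97 for Psma1 and Psma6 to 1.63 for Psma7. Psma7 measured 55.2, 67.1 and 46.7 RPKM in mESC-2i and 177, 179 and 172 RPKM in EpiLC. Psma8, the alpha subunit of germ cell proteasomes, was the only core gene tested that did not rise. Its levels were 5.51, 6.39 and 5.94 RPKM in mESC-2i and 4.95, 5.09 and 3.88 RPKM in EpiLC, which do not overlap but gave a log2 fold change of -0.38 ± 0.15 (SE) that was not called (edgeR's quasi-likelihood test, adjusted p = 0.0351).

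The 3 catalytic subunits all rose. Psmb5, which carries the chymotrypsin-like site and is the target of clinical proteasome inhibitors, lies at chr14:54614119-54618022 on the minus strand. It measured 49.7, 62.0 and 41.2 RPKM in the 3 mESC-2i libraries and 243, 261 and 227 RPKM in EpiLC. The groups did not overlap, and the log2 fold change was 2.24 ± 0.14 (SE), 4.72-fold (edgeR's quasi-likelihood test, adjusted p = 1.87e-07), the largest rise of a core gene without correction for length. Psmb6, which carries the caspase-like site, measured 125, 151 and 103 RPKM in mESC-2i and 323, 344 and 359 RPKM in EpiLC, 1.42 ± 0.13 on the log2 scale. Psmb7, with the trypsin-like site, measured 46.8, 55.1 and 38.4 RPKM against 115, 117 and 110 RPKM, 1.27 ± 0.13 on the log2 scale. No EpiLC value of these genes overlapped a mESC-2i value. Psmb7 shares 405 bases of exon with Nek6 on the other strand, and Psmb5 shares 109 bases with Mir686 on its own. Part of their counts is therefore uncertain. The non-catalytic Psmb1 to Psmb4 also rose, by 0.85 to 1.46 on the log2 scale.

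The ATPases of the regulatory particle, which pull the substrate in, had positive log2 fold changes between 0.41 and 1.23. Of the 6, 3 were called higher, against 32.0% of all tested genes. These were Psmc3, Psmc4 and Psmc5. Psmc4 rose most, from 93.2, 105 and 81.4 RPKM in mESC-2i to 217, 227 and 221 RPKM in EpiLC. The levels of Psmc1, Psmc2 and Psmc6 were also higher in every EpiLC library than in any mESC-2i library, with log2 fold changes of 0.50, 0.41 and 0.44.

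Among the 11 non-ATPases 4 rose, close to the 32.0% of all tested genes that did, and 1 fell, where 37.8% did. Psmd4, a ubiquitin receptor, measured 72.3, 84.2 and 68.0 RPKM in mESC-2i and 128, 132 and 128 RPKM in EpiLC, 0.77 ± 0.10 on the log2 scale. Psmd14, the deubiquitinase of the particle, measured 53.3, 57.6 and 43.8 RPKM against 78.2, 72.9 and 75.7 RPKM, 0.53 ± 0.11 on the log2 scale, close to the threshold. The other 2 that rose were Psmd7, the partner of Psmd14, and Psmd12. Psmd1, a large scaffold subunit of the base, went the other way. Its levels fell from 32.1, 31.0 and 28.1 RPKM to 17.5, 18.9 and 18.8 RPKM, -0.74 ± 0.09 on the log2 scale (adjusted p = 3.15e-05). Psmd2, the other large scaffold subunit, measured 78.2 RPKM ± 6.68 in mESC-2i and 85.3 RPKM ± 1.82 in EpiLC and was not called. Psmd1 shares 301 bases of exon with the gene model Gm21972 on its own strand and 252 bases with Htr2b on the other, so part of its counts is uncertain.

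The activators split. Psme1 and Psme2 together form the ring-shaped cap known from antigen processing, and are neighbours at chr14:55578123-55581529 and chr14:55587441-55591113. Psme1 measured 22.6, 27.7 and 19.3 RPKM in mESC-2i and 90.8, 93.7 and 87.8 RPKM in EpiLC. Psme2 measured 19.3, 23.5 and 17.9 RPKM against 108, 120 and 99.5 RPKM. In both genes the groups were far apart. The log2 fold change was 1.95 ± 0.13 for Psme1 (adjusted p = 2.28e-07) and 2.41 ± 0.12 for Psme2 (adjusted p = 4.46e-08), the largest rise of all 43 genes. Psme3, which forms a nuclear cap on its own, was higher in every EpiLC library, at 82.7 RPKM ± 1.17 against 60.9 RPKM ± 1.83, but its log2 fold change of 0.42 ± 0.08 was under the threshold. Psme4, a large single-chain nuclear cap, measured 28.7, 27.1 and 27.5 RPKM in mESC-2i and 28.5, 26.6 and 27.1 RPKM in EpiLC, with overlapping values.

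Psme2 has a near copy, Psme2b, which the symbol rule leaves out. Of the 913 possible 50-base reads of the principal Psme2 transcript, 541 (59.3%) also occur in Psme2b, so the counts of this pair cannot be fully separated. Psme2b took between 26.1 and 37.0% of the counts of both genes in the 9 libraries. With the counts of both genes added up, the log2 fold change was 2.56 in EpiLC against mESC-2i, 3.93 in EpiLC against mESC-ser and -1.32 in mESC-ser against mESC-2i, so the direction and the calls did not depend on the split.

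**Figure D3:**
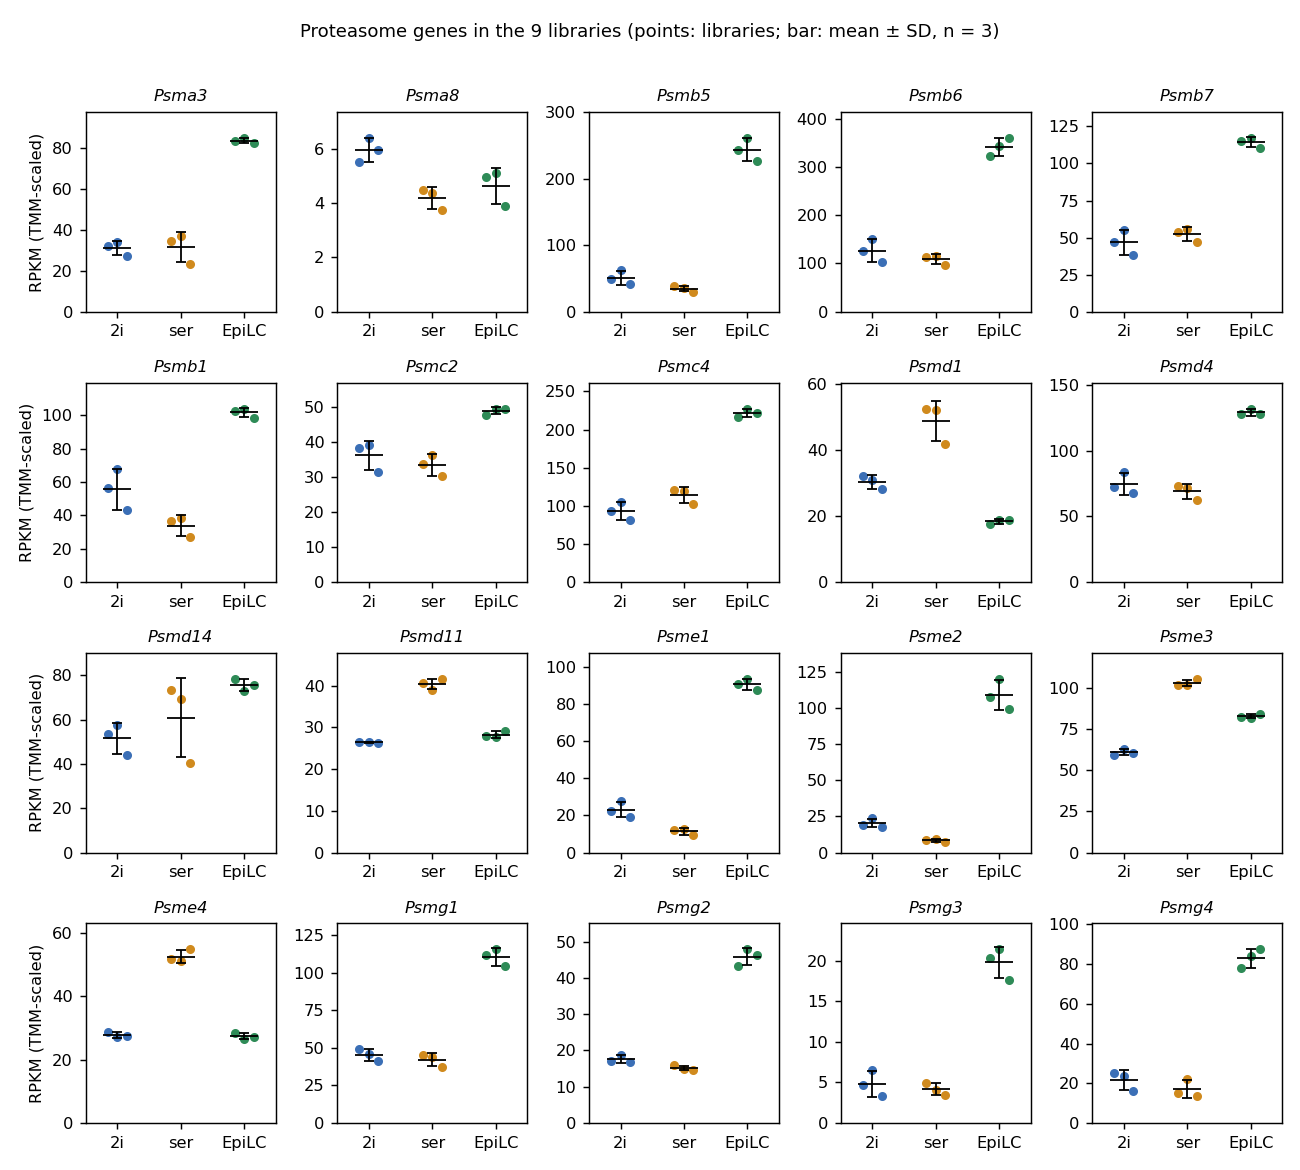
RPKM of 20 proteasome genes in each library (points; blue mESC-2i, orange mESC-ser, green EpiLC), with the mean and SD of 3 replicates in black; every axis starts at 0 and has its own range. Psmb5, Psme1, Psme2 and Psmg1 to Psmg4 stand apart in EpiLC, Psme3, Psme4, Psmd1 and Psmd11 are highest in mESC-ser, and Psma8 is highest in mESC-2i.

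The chaperones that build the core rose together with it. Psmg1 and Psmg2 act as a pair on the alpha ring, and so do Psmg3 and Psmg4. Psmg1 rose from 45.4 RPKM ± 3.90 in mESC-2i to 111 RPKM ± 5.72 in EpiLC and Psmg2 from 17.6 RPKM ± 1.03 to 45.9 RPKM ± 2.28. Psmg3 measured 4.71, 6.48 and 3.26 RPKM in mESC-2i and 20.3, 21.4 and 17.7 RPKM in EpiLC, and Psmg4 measured 25.2, 23.4 and 15.9 RPKM against 77.9, 83.9 and 87.4 RPKM. Psmg3 shares 280 bases of exon with the gene model Gm26938 on its own strand, so part of its counts is uncertain. The log2 fold changes were 1.27 ± 0.10, 1.37 ± 0.10, 2.02 ± 0.20 and 1.94 ± 0.16 from Psmg1 to Psmg4, and no values of the groups overlapped. Of the chaperones of the base, Psmd9 rose from 4.01 RPKM ± 0.624 to 7.23 RPKM ± 0.542, 0.83 ± 0.13 on the log2 scale, and it shares 1849 bases with a non-coding gene model on the other strand. Psmd5 (8.82 RPKM ± 1.34 and 10.8 RPKM ± 0.124) and Psmd10 (14.2 RPKM ± 2.23 and 13.2 RPKM ± 0.815) were not called, with log2 fold changes of 0.27 ± 0.11 and -0.13 ± 0.14.

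Fold changes followed transcript length in these libraries, and the classes differ in length. The median length of the principal transcript was 1174 bases in core genes, 1636 in regulatory genes and 1059 in assembly genes, against 3012.5 in all tested protein-coding genes. Across the 43 genes the Spearman correlation of the log2 fold change with this length was -0.76 in EpiLC against mESC-2i, and across 13037 protein-coding genes it was -0.34. In EpiLC against mESC-ser these correlations were -0.79 and -0.57, the latter across 12919 genes. In mESC-ser against mESC-2i they were 0.56 and 0.32, the latter across 13292 genes. These describe genes of the same libraries, which are not independent. Offsets per library for length and GC content were therefore fitted, from exonic length or from the principal transcript. With exonic length 30 of the 43 genes rose, against 29.6% of all tested genes, and 0 fell, against 35.5%. The medians were 1.20 for core, 0.49 for regulatory and 0.93 for assembly genes. After this correction the log2 fold changes of the 43 genes still correlated with principal transcript length at -0.54. With the principal transcript 28 rose, against 28.7%, and 1 fell, against 34.9%, with medians of 0.75, 0.37 and 0.80. The single gene lower with the principal transcript was Psma8 (-0.54). The core median stood above the regulatory median in each of the 3 fits, and nearest to it with the principal transcript.

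**Figure D4:**
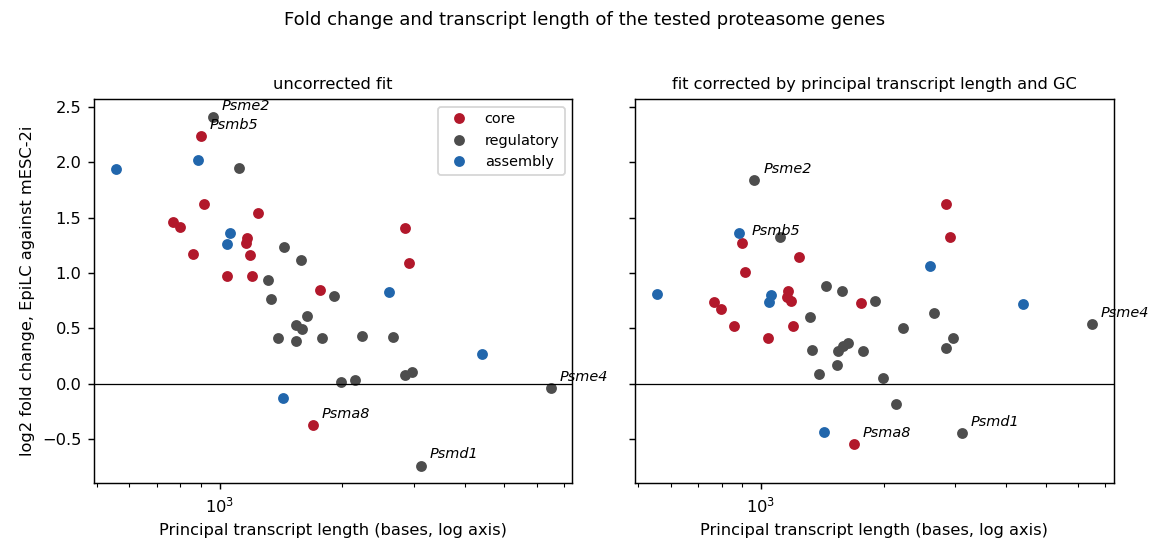
Log2 fold change of the 43 tested genes in EpiLC against mESC-2i, set against the length of the principal transcript on a log axis, in the uncorrected fit (left) and in the fit with offsets for principal transcript length and GC content (right); red core, grey regulatory, blue assembly. On the left short genes lie higher (Spearman correlation -0.76), on the right the correlation is -0.34 and Psme2, Psmb5 and most core genes remain above 0.

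In all 3 fits 24 genes rose in EpiLC against mESC-2i, among them 13 core genes (Psma1 to Psma5, Psma7 and Psmb1 to Psmb7), 6 regulatory genes (Psmc4, Psmc5, Psmd7, Psmd12, Psme1 and Psme2) and 5 assembly genes (Psmd9 and Psmg1 to Psmg4). The share of all tested genes that rose in all 3 fits is not given beside this count. Psmb5 stood at 1.37 after the correction by exonic length and at 1.28 by the principal transcript, below Psma7 (1.68) in the first and Psma3 (1.63) in the second, Psme1 at 1.70 and 1.32, and Psme2 at 2.2 and 1.84. Of the chaperones, Psmg3 stood at 2.02 and 1.36 and Psmg4 at 0.93 and 0.81. The fall of Psmd1 was not called after either correction (-0.35 and -0.45). The rises of Psmd4 (0.30) and Psmd14 (0.29) were not called with the principal transcript, whereas Psmd5 was called higher after both corrections (0.65 and 0.72), and Psme3 (0.64) and Psme4 (0.54) with the principal transcript. How much of the remaining difference goes with length or RNA quality was not tested.

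The comparison of EpiLC with mESC-ser uses the same EpiLC libraries so the 2 comparisons are not independent. Here 31 of the 43 genes rose, against 35.5% of all 15345 tested genes, and 2 fell, against 37.8%. Those that rose were 14 of 15 core, 12 of 21 regulatory and 5 of 7 assembly genes, with medians of 1.46, 0.53 and 1.48 on the log2 scale and -0.07 over all tested genes. After the correction by exonic length 26 rose (31.2% of all genes) and 1 fell (34.0%), with medians of 1.22, 0.34 and 0.89. By the principal transcript 21 rose (29.2%) and 1 fell (32.2%), with medians of 0.70, 0.15 and 0.67. By class, 14 core, 6 regulatory and 6 assembly genes rose with exonic length, and 11, 4 and 6 with the principal transcript. The regulatory counts were then not above the share of all genes. In all 3 fits 20 genes rose, 11 of them core, 4 regulatory (Psmc2, Psmc6, Psme1 and Psme2) and 5 assembly genes, and Psmd1 fell. Here too no share of all tested genes over the 3 fits stands beside the count. Scaling by total counts again moved the median of all genes by -0.34 and the share of higher genes among all calls from 48.4% to 37.4%. Under it 11489 of the 15345 tested genes were called, 37.4% of these higher. Of the 21 regulatory genes 7 were then called higher, in place of 12.

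Without correction Psme2 and Psmb5 had the largest rises of the regulatory and core genes. Psme2 measured 8.37, 9.48 and 7.29 RPKM in mESC-ser against at least 99.5 RPKM in EpiLC, a log2 fold change of 3.80 ± 0.11 or 13.9-fold (adjusted p = 4.99e-14), and of 3.17 and 2.73 after the corrections. Psme1 measured 12.0, 12.6 and 9.46 RPKM in mESC-ser and was 8.52-fold higher in EpiLC, a log2 fold change of 3.09, and of 2.40 and 1.96 after the corrections. For Psmb5 the mESC-ser values were 38.2, 36.1 and 30.3 RPKM, and the log2 fold change was 2.90 ± 0.10 (adjusted p = 2.11e-13), with 1.62 by exonic length and 1.45 by the principal transcript, below Psmb1 (1.95 and 1.49) and Psma3 (1.78 and 1.87). Psmb6 and Psmb7 rose by 1.74 ± 0.09 and 1.21 ± 0.08, and Psmb6 was no longer called with the principal transcript (0.42). Among the assembly genes Psmg4 rose by 2.40 ± 0.14, Psmg3 by 2.35, Psmg2 by 1.69, Psmg1 by 1.48 and Psmd9 by 1.01. This order did not hold after the corrections, where Psmg4 stood at 0.89 and 0.67, below Psmg3 (1.91 and 1.11), Psmd9 (1.51 and 0.96) and Psmg2 (1.28 and 0.94).

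Of the genes that fell, Psmd1 went from 52.6, 52.1 and 42.0 RPKM in mESC-ser to at most 18.9 RPKM in EpiLC, -1.32 ± 0.10 on the log2 scale (adjusted p = 1.24e-09). Psme4 went from 51.6, 51.0 and 54.7 RPKM to at most 28.5 RPKM, -0.85 ± 0.08, but its sign turned after the corrections (0.19 and 0.50). Psme4 has the longest principal transcript of the 44 genes, 6491 bases. Psmd4 rose by 0.99 ± 0.08, which ended after both corrections (0.45 and 0.05). Psmd14 (0.40 ± 0.15), Psme3 (-0.23 ± 0.07), Psmd5 (-0.09 ± 0.08), Psmd10 (0.48 ± 0.14) and Psma8 (0.24 ± 0.14) were not called. Psmd5 was called higher after both corrections (0.60 and 0.62) and Psmd14 with exonic length (0.56).

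Serum culture and 2i culture, compared to show how the stem cell states differ, were much closer. In mESC-ser against mESC-2i, 4 of the 43 genes rose, where 25.9% of all 15728 tested genes did, and 7 fell, where 30.3% did. Medians were -0.18 for core, 0.03 for regulatory, -0.27 for assembly and -0.04 for all tested genes. The genes that rose were Psme4, Psme3, Psmd1 and Psmd11, all regulatory. Those that fell were Psma8, Psmb1, Psmb4 and Psmb5 of the core, Psme1 and Psme2, and the chaperone gene Psmd10. With the correction by exonic length 3 rose (24.6% of all genes) and 5 fell (28.0%), and by the principal transcript 5 rose (23.9%) and 5 fell (27.7%). Leaving out mESC-2i replicate 2 or mESC-ser replicate 3 left 4 lower genes in place of 7. In each of the 3 fits Psme3 rose and Psma8, Psmb1, Psme1, Psme2 and Psmd10 fell.

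All 4 activators were called here, 2 in each direction. Psme2 fell from a lowest value of 17.9 RPKM in mESC-2i to a highest value of 9.48 RPKM in mESC-ser, -1.34 ± 0.15 on the log2 scale (adjusted p = 2.02e-05), the largest change of the 43 genes. Psme1 fell by 1.09 ± 0.16 on the log2 scale (adjusted p = 1.48e-04), from at least 19.3 RPKM to at most 12.6 RPKM. Psme3 rose from 59.5, 62.9 and 60.2 RPKM to 102, 102 and 105 RPKM, 0.70 ± 0.09 on the log2 scale (adjusted p = 6.73e-05). Psme4 rose from at most 28.7 RPKM to at least 51.0 RPKM, 0.86 ± 0.10 on the log2 scale, but stood at 0.25 and 0.06 after the corrections and was then not called. In the plot of values by library the 4 activators show 2 opposite profiles, with Psme1 and Psme2 lowest and Psme3 and Psme4 highest in mESC-ser.

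Changes in the core were small. Psmb1, a non-catalytic beta subunit, fell most, from 56.7, 67.6 and 43.1 RPKM in mESC-2i to 36.6, 38.2 and 26.8 RPKM in mESC-ser, -0.78 ± 0.18 on the log2 scale (adjusted p = 0.00284). Psmb5 fell to 38.2, 36.1 and 30.3 RPKM, -0.61 ± 0.16 (adjusted p = 0.00573), a call that ended after the corrections (-0.23 and -0.16) and without mESC-2i replicate 2 (-0.45). Psmb6 (-0.28 ± 0.14) and Psmb7 (0.11 ± 0.13) were not called and their values overlapped. Psma8 fell from at least 5.51 RPKM to at most 4.49 RPKM, -0.57 ± 0.14 (adjusted p = 0.00378), and was not called without mESC-ser replicate 3 (-0.47).

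No ATPase was called between the stem cell states without correction, and Psmc4 was called higher in mESC-ser after both corrections (0.24 uncorrected, 0.64 and 0.64). The non-ATPase Psmd7 was likewise called only after the corrections (0.36 uncorrected, 0.75 and 0.73). Psmd1 rose by 0.63 ± 0.12 on the log2 scale and Psmd11, a scaffold subunit of the lid, from 26.5, 26.6 and 26.3 RPKM to 40.6, 39.0 and 41.6 RPKM, by 0.55 ± 0.09. Neither was called with the correction by exonic length (0.32 and 0.33), and both were with the principal transcript (0.60 and 0.55). Psmd4 (-0.17 ± 0.11) and Psmd14 (0.18 ± 0.20) were not called, and in mESC-ser Psmd14 varied between 40.3 and 73.2 RPKM. Of the assembly genes Psmd10 fell from 15.4, 15.7 and 11.7 RPKM to 11.8, 10.6 and 7.86 RPKM, -0.56 ± 0.18 (adjusted p = 0.0187), with overlapping values and a call that ended without mESC-2i replicate 1 or 2 or without mESC-ser replicate 3. Psmg1 to Psmg4 had log2 fold changes between -0.39 and -0.16 and Psmd5 and Psmd9 of 0.41 and -0.13, none of them called.

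The inducible catalytic subunits replace Psmb5, Psmb6 and Psmb7 in the immunoproteasome, the form that favours peptides for antigen presentation. All 3 were called higher in EpiLC against both stem cell states and in mESC-ser against mESC-2i. Psmb10, which replaces Psmb7, measured 4.61, 4.89 and 4.48 RPKM in mESC-2i, 11.2, 13.3 and 10.3 RPKM in mESC-ser and 149, 164 and 145 RPKM in EpiLC. No values of the groups overlapped, and the log2 fold change was 5.01 ± 0.11 in EpiLC against mESC-2i (adjusted p = 4.15e-10), or 32.3-fold. Psmb10 made up 9.19% ± 1.16 of the summed RPKM of Psmb10 and Psmb7 in mESC-2i (SD, n = 3), 18.1% ± 1.02 in mESC-ser and 57.1% ± 1.07 in EpiLC. With principal transcript lengths the shares were 4.27, 8.89 and 37.0%, so which of the pair was higher in EpiLC depends on the length used.

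Psmb8, which replaces Psmb5, and Psmb9, which replaces Psmb6, stayed minor. Psmb8 measured 0.182, 0.222 and 0.254 RPKM in mESC-2i, 0.807, 0.903 and 0.764 RPKM in mESC-ser and 4.01, 4.46 and 3.08 RPKM in EpiLC, a log2 fold change of 4.07 ± 0.25 between EpiLC and mESC-2i. Psmb9 measured 0.143 RPKM ± 0.0654, 0.374 RPKM ± 0.124 and 2.62 RPKM ± 0.113, a log2 fold change of 4.16 ± 0.28. Of the sum with Psmb5, Psmb8 made up 2.33% ± 0.220 in mESC-ser, 1.55% ± 0.182 in EpiLC and 0.444% ± 0.145 in mESC-2i. By these uncorrected levels its share was highest in mESC-ser although its level was highest in EpiLC. In EpiLC against mESC-ser the uncorrected log2 fold change was 2.32 for Psmb8 and 2.90 for Psmb5. Psmb8 rose more than Psmb5 after the corrections by exonic length (1.92 and 1.62) and by the principal transcript (1.61 and 1.45). Which of these 2 states had the higher share therefore depends on the correction. In EpiLC Psmb9 made up 0.761% ± 0.0168 of the sum with Psmb6. Psmb8 overlaps an antisense gene and Psmb9 overlaps Tap1, so their low counts are uncertain. The rise of Psmb9 in mESC-ser against mESC-2i (1.29 ± 0.43, adjusted p = 0.0210) was not called without mESC-2i replicate 2 (0.92) or without mESC-ser replicate 2 (1.07).

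**Figure D5:**
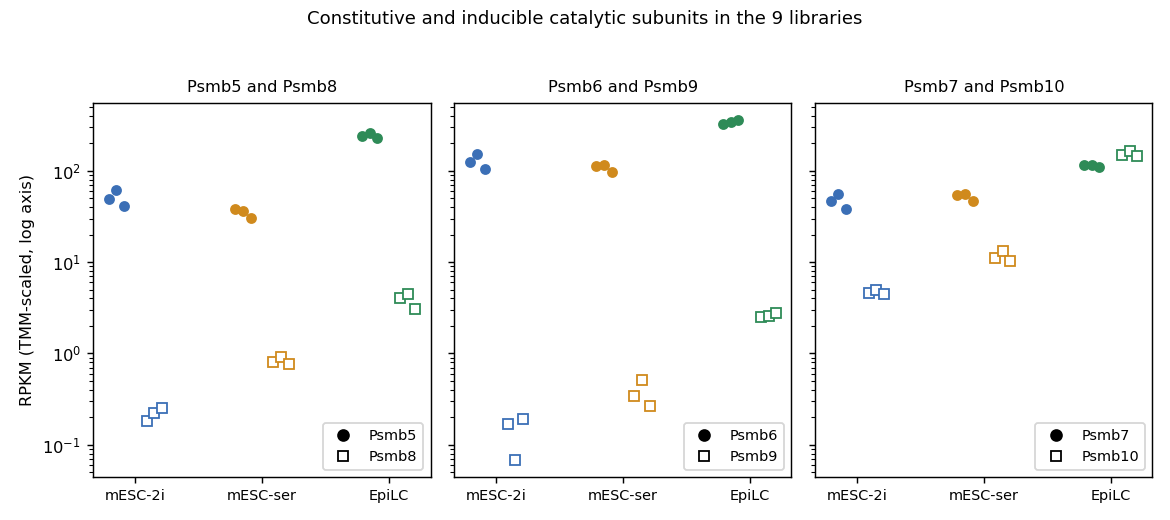
RPKM on a log axis of each constitutive catalytic subunit (filled circles) and the inducible subunit that can replace it (open squares) in the 9 libraries; blue mESC-2i, orange mESC-ser, green EpiLC. Psmb8 and Psmb9 stay under 5 RPKM in every library, while Psmb10 reaches 145 to 164 RPKM in EpiLC.

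Genes of the pathway outside the symbol rule were taken from a list of 34 genes, all of which were tested. The list includes the 3 inducible subunits above, which count among the genes that rose in each comparison. In EpiLC against mESC-2i 13 rose and 5 fell, in EpiLC against mESC-ser 12 rose and 12 fell, and in mESC-ser against mESC-2i 14 rose and 4 fell. Over all tested genes, 32.0% rose and 37.8% fell in the first of these comparisons, 35.5% and 37.8% in the second, and 25.9% and 30.3% in the last, so the counts of EpiLC against mESC-ser were close to the share of all genes in both directions. The median log2 fold change over the list was 0.07, -0.03 and 0.21. In the group of partners and assembly factors, 6 of 10 genes rose against mESC-2i and 6 rose and 2 fell against mESC-ser. The genes that rose were Psmf1, Adrm1, Sem1, Pomp, Uchl5 and Txnl1 in both comparisons, which share the EpiLC libraries. With the principal transcript Adrm1 was not called in either (0.10 and -0.25), and Zfand5, lower in EpiLC against mESC-ser (-0.50), was called higher after both corrections (1.02 and 1.18). Pomp, the maturation factor that joins the beta ring to the alpha ring, measured 21.2, 22.9 and 16.9 RPKM in mESC-2i, 20.4, 20.8 and 14.8 RPKM in mESC-ser and 71.8, 75.9 and 76.2 RPKM in EpiLC, 1.86 ± 0.12 on the log2 scale against mESC-2i. It was called higher in EpiLC in all 3 fits, against either stem cell state.

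Of 7 regulators of proteasome transcription, 1 rose and 3 fell in EpiLC against mESC-2i (32.0% and 37.8% of all genes), and 0 rose and 4 fell against mESC-ser (35.5% and 37.8%). Ddi2, the protease that cleaves NFE2L1, was among the 4 that fell against mESC-ser (-0.74), but with the principal transcript it was called higher in EpiLC (0.57 against mESC-ser and 0.58 against mESC-2i). Nfe2l1, the transcription factor known to raise proteasome genes when the proteasome is inhibited, measured 40.1, 40.1 and 39.9 RPKM in mESC-2i, 39.5, 39.9 and 46.8 RPKM in mESC-ser and 23.6, 24.3 and 21.9 RPKM in EpiLC. It fell by 0.80 ± 0.09 on the log2 scale in EpiLC against mESC-2i (adjusted p = 9.47e-06), and the value with the principal transcript was -0.43 and not called. Nfe2l2, the regulator of the response to oxidative stress, measured 34.2 RPKM ± 0.351, 21.5 RPKM ± 0.524 and 15.1 RPKM ± 2.28. It fell by 1.20 ± 0.11 in EpiLC and by 0.73 ± 0.09 in mESC-ser against mESC-2i, and these calls held in all 3 fits, while its value in EpiLC against mESC-ser (-0.42 ± 0.10) was not called. Ngly1, the enzyme that removes sugars from NFE2L1 as part of its activation, had the largest fall of the list in EpiLC against mESC-2i, from 1.24, 1.26 and 1.02 RPKM to 0.195, 0.172 and 0.249 RPKM, -2.52 ± 0.22 on the log2 scale (adjusted p = 1.85e-06). These are mRNA levels, and both factors are regulated mainly at the protein level.

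Shuttles bring tagged proteins to the proteasome. Of 8 shuttle and segregase genes 5 rose and 0 fell in mESC-ser against mESC-2i (25.9% and 30.3% of all genes), with a median log2 fold change of 0.75. In EpiLC against mESC-ser 4 fell (37.8% of all genes), of which Rad23b and Nploc4 were not called with the principal transcript (-0.44 each). The genes that rose were Rad23b, Ubqln1, Ubqln2, Ubqln4 and Nploc4. Among ubiquitin genes and activating enzymes, Uba6, the alternative E1 enzyme, measured 2.36, 2.04 and 2.80 RPKM in mESC-2i, 13.4, 13.0 and 12.5 RPKM in mESC-ser and 1.23, 0.771 and 0.970 RPKM in EpiLC. Without correction it was the largest rise of the list in serum (2.38 ± 0.13, adjusted p = 2.03e-07) and the largest fall in EpiLC against mESC-ser (-3.64 ± 0.12, adjusted p = 1.74e-13). It stayed called with the principal transcript at 1.45 and -2.09, where Psmb8 (2.16) rose more in serum. Rps27a, which encodes ubiquitin fused to a ribosomal protein, was the largest fall of the list in mESC-ser against mESC-2i without correction, -1.11 ± 0.16, from at least 265 RPKM to at most 181 RPKM. With exonic length Ngly1 (-1.15) fell more than Rps27a (-0.96), and with the principal transcript both stood at -0.83.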

How the data were processed

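RNA-seq (50 bp single-end) counts per gene were analysed for 9 libraries in 3 groups of 3. The authors deposited raw counts per gene, with no normalization. The submitters' processing notes name mm10, FastQC 0.11.0, Trim Galore 0.6.6, HISAT2 2.2.1 and Subread 2.0.1. The settings for strand and for reads with several positions are not given in the sources used here, so overlapping genes and near copies are uncertain. The reads carry no molecular identifiers, so precision from depth covers counting error only. The 36429 of 38293 gene IDs (95.1%) found in GENCODE M21 gave names, lengths and positions, and promoter windows came from RefSeq (GRCm38.p6).

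Every comparison used only the 6 libraries of the groups compared, in edgeR 4.0.16 under R 4.3.3 (filterByExpr, TMM, quasi-likelihood F-test with Benjamini-Hochberg adjustment over all tested genes). A call needed a log2 fold change over 0.5 in size at an adjusted p under 0.05. Alternatives were DESeq2 1.42.0, RLE, upper-quartile and total-count scaling, other filters and thresholds, all libraries in 1 fit, leaving out each library, the replicate number as a block, and offsets per library for length and GC content. The steps were tested on simulated data. The p-values measure the spread between replicate cultures of a single line. The correction by the principal transcript, levels by its length and the summing of Psme2 with Psme2b were chosen after seeing the data.

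Deviations of same-numbered libraries correlated at 0.129, 0.182 and 0.345 between mESC-ser and mESC-2i. These were over 0.1 in every pair, and by this threshold those numbers were taken to pair the libraries. Differently numbered libraries of these groups ranged from -0.278 to 0.146, so the highest of them lay above the lowest same-numbered value. The calls, SE and p-values in the Results come from fits without the replicate number, which entered only as an alternative. For mESC-ser against mESC-2i they thus leave out a pairing that the threshold accepted. With the block the numbers of proteasome genes called there were the same, but SE could differ. That of Psmb1 was 0.07 with the block and 0.18 without it. For EpiLC the same-numbered values ranged from 0.0195 to 0.112 against mESC-2i and from 0.0165 to 0.0335 against mESC-ser. They were not over 0.1 in every pair, so the EpiLC numbers were not taken to pair the libraries. Differently numbered libraries ranged from -0.114 to 0.0105 and from -0.0308 to 0.0159, below every same-numbered value of the same comparison. Whether equal numbers mark libraries handled together was not tested.

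The genes and lists were chosen with earlier results of these data known. Named by rule were the called gene with the largest rise and fall of each class in each comparison, the catalytic subunits, Psmd4, Psmd14, the activators, the assembly genes, Psma8 and Psmb11, and, of the pathway list, the inducible subunits, Pomp, Nfe2l1, Nfe2l2 and, per comparison, the called gene that rose and the one that fell most. The other genes named were chosen after their values were seen. Of the pathway list, Paaf1 was not analysed here.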

Additional observations from a re-analysis of the deposited data

How the results depend on the processing

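Of the values for single named genes, 1403 kept direction and call under an alternative, 47 lost the call, 31 gained one and 38 turned sign. The limits are the 3 libraries per group, the dependence of fold changes on transcript length, and counts of overlapping genes. The cause of the changes below was not tested. For mESC-ser against mESC-2i, 8 genes were higher with adjusted p alone and 0 with an absolute log2 fold change over 1, and 2 were lower with that threshold. For EpiLC against mESC-2i, lower genes numbered 0 with the length and GC correction, with or without the replicate block, 2 with total-count scaling, 2 with adjusted p alone and 0 over 1. For EpiLC against mESC-ser they numbered 1 with either length and GC correction, 1 with the replicate block and that correction, 4 with total-count scaling, 4 with adjusted p alone and 1 over 1. Leaving out a library gave 4 to 5 higher and 4 to 10 lower genes for mESC-ser against mESC-2i, 27 to 33 higher and 1 lower for EpiLC against mESC-2i, and 28 to 33 higher and 2 lower for EpiLC against mESC-ser. The replicate block alone left 4 higher and 7 lower in mESC-ser against mESC-2i. It gave 10 higher regulatory genes in place of 9 in EpiLC against mESC-2i, through Psmc1, and the replicate numbers of EpiLC were not taken to pair the libraries.

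Signs turned in mESC-ser against mESC-2i, with the principal transcript, the exonic length and the latter plus the replicate block, for Psmb6 (0.27, 0.15 and 0.15), Psmd4 (0.24, 0.19 and 0.18), Psmg1 (0.19, 0.15 and 0.15), Psmg3 (0.27, 0.11 and 0.13) and Psmg4 (0.17, 0.0922 and 0.0978). With the principal transcript Psmd9 (0.0745), Pomp (0.0616) and Nfe2l1 (-0.0558) turned, and with the block and exonic length Psmd14 (-0.0129). Nfe2l1 also turned with total-count (-0.0312) and upper-quartile scaling (-0.0213). Leaving out single libraries gave Nfe2l1 -0.0578 (without mESC-ser replicate 3) to 0.0896, Psmb7 -0.0156 (without mESC-2i replicate 3) to 0.227 and Psmg3 -0.51 to 0.00237 (without mESC-2i replicate 2). In EpiLC against mESC-2i, Psme4 was 0.0272 with DESeq2, 0.027 with RLE, 0.54 with the principal transcript, 0.40 with exonic length with or without the block, and -0.0546 to 0.0200 with single libraries left out (positive without mESC-2i replicate 1), and Psmd5 was -0.0651 with total counts. In EpiLC against mESC-ser, the principal transcript, exonic length and the latter with the block gave Psme4 0.50, 0.19 and 0.19 and Psmd5 0.62, 0.60 and 0.60, and Psma8 was -0.0987 with total counts.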

Other observations

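Sem1, a small subunit of the lid of the regulatory particle, and Uchl5, a deubiquitinase bound to it, were chosen after their values were seen. Sem1 measured 22.9, 24.9 and 20.8 RPKM in mESC-2i, 15.6, 16.2 and 16.2 RPKM in mESC-ser and 70.5, 68.4 and 73.7 RPKM in EpiLC, so the groups did not overlap. Its log2 fold change was 1.61 ± 0.10 (SE) in EpiLC against mESC-2i and -0.57 ± 0.10 in mESC-ser against mESC-2i, called in all 3 fits. Uchl5 measured 17.6 RPKM ± 1.10 (SD, n = 3), 27.9 RPKM ± 1.38 and 44.7 RPKM ± 2.96, a log2 fold change of 1.32 ± 0.09 in EpiLC against mESC-2i. Usp14, the other deubiquitinase that binds the particle, measured 13.9 RPKM ± 0.731, 22.3 RPKM ± 2.37 and 14.4 RPKM ± 1.07, and its fall in EpiLC against mESC-ser (-0.55 ± 0.09) turned to a rise after the corrections by exonic length (0.56) and by the principal transcript (0.52).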
